A study of Mus musculus with 12 samples.

Results

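The genes of cytochrome P450 families 1, 2 and 3 were taken as every gene name in all 12 deposited count tables that reads Cyp1, Cyp2 or Cyp3, then a single letter and a number. The rule found 58 genes of 23420, in 16 subfamilies: 15 Cyp2c, 9 Cyp2d, 7 Cyp2j, 7 Cyp3a, 5 Cyp2b, 4 Cyp2a, 2 Cyp1a genes and 9 subfamilies of 1 gene each. Of these 58 genes, 47 passed the filter on low counts and were tested. The other 11 (Cyp2b19, Cyp2b23, Cyp2c65, Cyp2c66, Cyp2d34, Cyp2j11, Cyp2j12, Cyp2j13, Cyp2s1, Cyp2t4 and Cyp2w1) had at most 15 counts in any library, and none of the 58 was at 0 in all 12.

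The livers came from C57BL/6 mice, and every mouse, controls included, had both copies of the gene Polr2m floxed. Polr2m encodes Gdown1, an RNA polymerase II binding protein. KO livers lose Gdown1 through Alb-Cre, a Cre recombinase driven by the albumin promoter and so active in hepatocytes, and are compared with FF livers, which carry no Cre; both are labelled 7 weeks. DKO livers combine the same Alb-Cre with a p53 null mutation and are compared with p53KO livers, which are p53 null and floxed without Cre; both are labelled 8 weeks. DKO TAM livers are p53 null with a tamoxifen-inducible Alb-CreERT2, and are compared with p53KO TAM livers, p53 null with no Cre named, both taken 24 hours after tamoxifen at an age the labels do not give. Since no control is labelled with Cre, the effects of Cre and of the deletion cannot be told apart. Each group has 2 libraries, and the titles of 8 libraries (KO, FF, DKO TAM and p53KO TAM) carry a further number that differs between all of them and that the labels do not explain. Since no label says outright that the 2 libraries of a group came from separate animals, p-values measure only the spread between these libraries.

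Cytochromes P450 are haem enzymes of the endoplasmic reticulum that insert an oxygen atom into drugs, steroids, fatty acids and bile acids, with electrons from NADPH through the reductase Por. In liver their genes follow the position of the hepatocyte between portal and central vein, the sex-dependent pattern of growth hormone, and nuclear receptors that sense foreign compounds: CAR (Nr1i3) for Cyp2b10 and several Cyp2c genes, PXR (Nr1i2) for Cyp3a11, and the aryl hydrocarbon receptor (Ahr) for Cyp1 genes. Many sit in clusters of related genes, some of them close copies, as Cyp2c on chromosome 19, Cyp2d on 15, Cyp3a on 5, Cyp2j on 4, and Cyp2a, Cyp2b, Cyp2f, Cyp2g, Cyp2s and Cyp2t on 7.

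Library totals ranged from 4939408 to 8776369 counts. Polr2m stood at 59.4 to 64.7 CPM (counts scaled to library size, with TMM, a factor for library composition) in KO and 96.7 to 100.3 CPM in FF livers, at 58.1 to 59.99 CPM in DKO and 89.1 to 102.7 CPM in p53KO livers, and at 54.6 to 65.9 CPM in DKO TAM and 75.9 to 78.7 CPM in p53KO TAM livers. It was lower in every deleted library than in every control of its experiment, though the third difference missed the threshold (-0.36 ± 0.13, adjusted p = 0.063). Trp53, the gene of p53, stood at 17.1 to 22.5 CPM in KO and 7.94 to 13.1 CPM in FF livers, at 8.13 to 8.39 CPM in DKO and 2.79 to 3.07 CPM in p53KO livers, and at 8.96 to 10.01 CPM in DKO TAM and 3.79 to 3.97 CPM in p53KO TAM livers. Its transcript was thus higher in deleted than control livers of every experiment (0.93, 1.48 and 1.29, adjusted p = 0.013, 5.0e-04 and 0.0039), and the DKO and DKO TAM libraries, labelled p53 null, lay in the range of FF livers. The labels do not say which part of Trp53 the mutation removes, so "p53-null" is used here as the label only. Of 8 hepatocyte markers, 4 fell in KO, 8 in DKO and 6 in DKO TAM livers, with summed levels of 75402 to 85036 CPM in KO against 125279 to 130293 CPM in FF, 41176 to 44482 CPM in DKO against 135758 to 138342 CPM in p53KO, and 64639 to 67430 CPM in DKO TAM against 136583 to 138327 CPM in p53KO TAM livers. In DKO livers 8 of 8 stellate and fibroblast markers, 6 of 7 macrophage markers and 5 of 6 tested cholangiocyte markers rose. Macrophage markers summed to 985 to 1043 CPM in DKO and 438 to 474 CPM in p53KO livers, and cholangiocyte markers to 267 to 299 CPM in DKO and 66.3 to 67.8 CPM in p53KO livers. The part of these cell types in the P450 results was not tested. In whole liver, fewer hepatocytes and less RNA per hepatocyte cannot be told apart.

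The summed level of the 58 genes was lower in deleted livers of all 3 experiments. It was 10617 and 15639 CPM in the KO libraries and 20359.6 and 26442 CPM in the FF libraries. The DKO libraries held 7543 and 6115 CPM, against 28935 and 29453 CPM in the p53KO libraries. The DKO TAM libraries held 12476 and 9306 CPM, against 27898 and 29606 CPM in the p53KO TAM libraries. Deleted and control libraries did not overlap in any of the 3 experiments. By the means, the sum was 1.78-fold lower in KO than in FF, 4.28-fold lower in DKO than in p53KO, and 2.64-fold lower in DKO TAM than in p53KO TAM livers. As plain shares of the library total, without TMM, these folds were 1.499, 2.52 and 2.07. The sums are described without a test, since they are led by a few genes.

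Per kilobase of exon, the make-up of this pool also shifted. In DKO livers the 7 Cyp3a genes held 59.7% ± 1.95 of the summed CPM per kilobase, against 28.7% ± 1.009 in p53KO livers (SD, n = 2 each), and the 15 Cyp2c genes held 11.2% ± 0.739 against 24.6% ± 1.005. In DKO TAM livers the Cyp2c share was 18.4% ± 1.85, against 45.6% ± 2.88 in p53KO TAM livers. By group means, Cyp2e1 led the pool in FF livers with 26.7% and in p53KO livers with 24.3%, there close to Cyp3a11 (23.6%). Cyp2c29 led it in p53KO TAM livers with 27.0%, close to Cyp3a11 (25.4%). Cyp3a11 led in KO (27.7% ± 17.6), DKO (53.9% ± 1.67) and DKO TAM livers (32.6% ± 0.805). Not every library followed its group mean. In KO replicate 1 Cyp2e1 had 1182 CPM per kilobase and Cyp3a11 842. In p53KO TAM replicate 1 Cyp3a11 had 3947 and Cyp2c29 3841. The larger Cyp3a share of DKO livers went with a lower Cyp3a level: the Cyp3a sum averaged 4226 CPM in DKO and 8892 CPM in p53KO livers, 2.10-fold lower, and the rest of the pool was lower still. By library totals the Cyp3a sum was 1.24-fold lower, with 5941 CPM in DKO and 7358 CPM in p53KO livers.

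**Figure D1:**
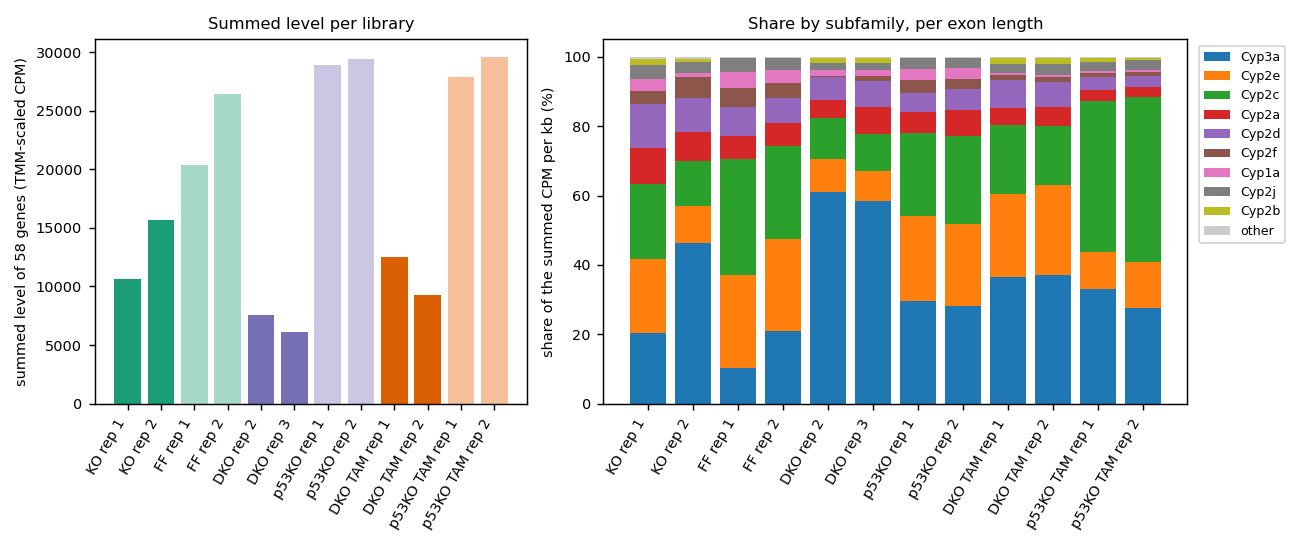
Left, summed level of the 58 genes in each library (TMM-scaled CPM, bars from 0, deleted groups in dark and their controls in light colours); right, share of each subfamily in the summed CPM per kilobase of exon (%). Every deleted library has a lower sum than every control library of its experiment, and the Cyp3a share (blue) is highest in the DKO libraries.

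Gene by gene, 7 of 47 tested P450 genes rose and 15 fell in KO against FF livers (edgeR quasi-likelihood test, Benjamini-Hochberg adjusted p under 0.05 over 13693 genes, used throughout). Of all genes tested there, 14.8% were called, 6.92% higher and 7.88% lower. In DKO against p53KO livers 8 rose and 32 fell, where 51.4% of all genes were called, 25.7% higher and 25.7% lower. In DKO TAM against p53KO TAM livers 5 rose and 22 fell, where 18.7% of all genes were called, 8.61% higher and 10.1% lower. The median log2 fold change of the 47 genes was -0.49, -1.83 and -0.93 in these comparisons, beside 0.02, 0.01 and 0.01 over all genes. Falls thus took a larger share of the 47 genes than of all genes in each comparison, and gains a smaller share than of all genes in DKO livers. The same shares of all genes apply to the other counts of calls in these comparisons, for markers, subfamilies and partner genes alike. Leaving out p53KO TAM replicate 2 left 3 gains in DKO TAM livers.

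Across the 3 comparisons, 13 genes fell in each (Cyp1a2, Cyp2c29, Cyp2c37, Cyp2c38, Cyp2c50, Cyp2c55, Cyp2c67, Cyp2c70, Cyp2d13, Cyp2d22, Cyp2d26, Cyp2j5 and Cyp2r1) and 3 rose in each (Cyp2a22, Cyp2d11 and Cyp2j8). A further 8 fell in both p53-null experiments without being called in KO livers: Cyp2a12, Cyp2c40, Cyp2c44, Cyp2c54, Cyp2c68, Cyp3a13, Cyp3a25 and Cyp3a57. The DKO call of Cyp2c40 was lost in 10 of 12 alternative settings. Another 6 fell in DKO livers and were not called in the other comparisons: Cyp2a5, Cyp2d12, Cyp2d40, Cyp2f2, Cyp2g1 and Cyp2u1. Of the others, Cyp2e1 and Cyp2j6 fell and Cyp2b9 and Cyp2b13 rose in KO and DKO livers without a call in DKO TAM livers, Cyp1a1, Cyp1b1 and Cyp2a4 rose in DKO livers alone by this threshold, Cyp2c69 passed it in DKO TAM livers with a fall, and Cyp2d9, Cyp2d10 and Cyp2j9 were called in opposite directions. For 6 genes no comparison passed the threshold: Cyp2b10, Cyp2c39, Cyp3a11, Cyp3a16, Cyp3a44 and Cyp3a59. With only the compared libraries fitted, 5 of these, all but Cyp2c39, passed it in DKO or DKO TAM livers. The 3 comparisons have no library in common, but all come from the same fit with a shared estimate of spread. How many of all genes showed these patterns was not counted.

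**Figure D2:**
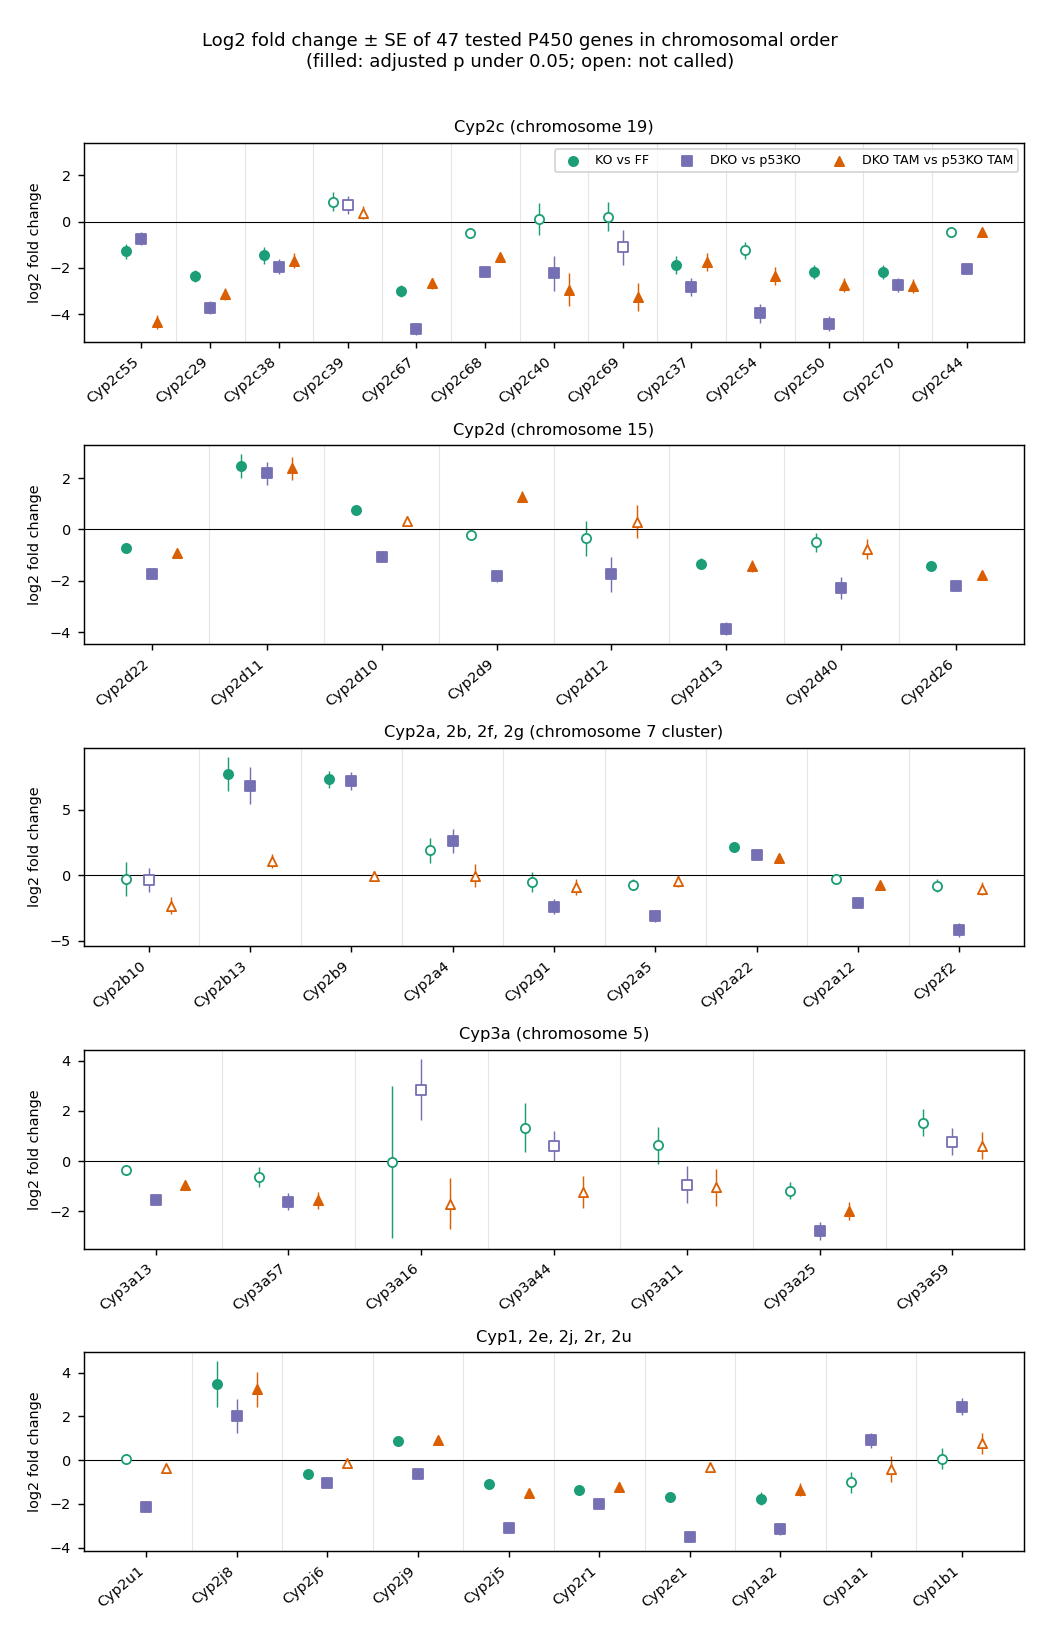
Log2 fold change ± SE of the 47 tested genes in order along each chromosome, for KO against FF (circles), DKO against p53KO (squares) and DKO TAM against p53KO TAM (triangles); filled symbols have an adjusted p under 0.05. The Cyp2c panel holds filled symbols only below 0, while Cyp2b9 stands at 7.30 for KO, 7.15 for DKO and -0.04 for DKO TAM; the Cyp2b13 symbols for KO and DKO are fitted against controls with no count and give no size.

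The Cyp2c genes, which epoxidize and hydroxylate arachidonic acid and metabolize many drugs, mostly fell. Of 13 tested, 7 fell in KO, 11 in DKO and 12 in DKO TAM livers, and none rose in any of them; their median log2 fold changes were -1.29, -2.23 and -2.66. Cyp2c29 (chr19:39287085-39330713, plus strand, mm10), an arachidonic acid epoxygenase inducible through CAR, was the most abundant of them per kilobase. It had 435 and 431 CPM in KO and 2065 and 2393 CPM in FF livers (-2.36 ± 0.26, adjusted p = 7.1e-05). In DKO livers it had 226 and 159.7 CPM, against 2658 and 2476 CPM in p53KO livers (-3.74 ± 0.28, adjusted p = 2.2e-07). In DKO TAM livers it had 1069.8 and 547 CPM, against 6861 and 7384 CPM in p53KO TAM livers (-3.14 ± 0.27, adjusted p = 7.1e-06). The deleted and control libraries were far apart in each experiment, and the p53KO TAM controls stood above all other libraries.

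The sequences of the 250 bases before the RefSeq start of Cyp2c29 (chr19:39286835-39287084, plus strand, GRCm38.p6) and of Cyp2e1 (chr7:140763569-140763818, plus strand) are shown because these were the most abundant of the genes that fell; capitals mark a TATA box, searched as TATAAA on the sense strand.
Cyp2c29: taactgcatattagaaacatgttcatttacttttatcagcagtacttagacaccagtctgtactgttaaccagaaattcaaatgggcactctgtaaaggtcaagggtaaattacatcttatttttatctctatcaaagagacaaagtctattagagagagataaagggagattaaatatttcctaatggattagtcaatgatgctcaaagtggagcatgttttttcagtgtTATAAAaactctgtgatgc
Cyp2e1: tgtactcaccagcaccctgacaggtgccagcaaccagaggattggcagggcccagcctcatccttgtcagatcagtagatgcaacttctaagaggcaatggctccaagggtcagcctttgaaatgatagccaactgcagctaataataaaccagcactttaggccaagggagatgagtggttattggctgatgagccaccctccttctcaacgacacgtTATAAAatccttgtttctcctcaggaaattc

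Cyp2c50, a CAR-inducible relative of Cyp2c29, had 349 and 230.1 CPM in KO and 1219 and 1396 CPM in FF livers (-2.17 ± 0.30, adjusted p = 0.001). It had 79.1 and 48.8 CPM in DKO and 1324 and 1421 CPM in p53KO livers (-4.42 ± 0.33, adjusted p = 1.7e-06), and 261 and 157 CPM in DKO TAM and 1261 and 1556 CPM in p53KO TAM livers (-2.75 ± 0.31, adjusted p = 2.1e-04). Its controls were alike in the 3 experiments, and its deleted libraries were lowest in DKO livers. Cyp2c67 fell as well, with 72.8 and 50.2 CPM in KO and 536 and 450.4 CPM in FF livers (-3.000 ± 0.24, adjusted p = 8.3e-06), and by log2 fold changes of -4.64 ± 0.26 in DKO and -2.66 ± 0.24 in DKO TAM livers. In transcripts of this gene, however, 52.8% of the 50-base words also occur in other genes, mostly Cyp2c40, so counts of the 2 may be mixed or lost.

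Cyp2c70, which in mice converts chenodeoxycholic acid to muricholic acids, had 270.0 and 210.3 CPM in KO and 1089 and 1071 CPM in FF livers (-2.17 ± 0.30, adjusted p = 0.0011). It had 131 and 120.0 CPM in DKO and 758 and 929 CPM in p53KO livers (-2.75 ± 0.31, adjusted p = 3.9e-05). Its levels were 85.8 and 166 CPM in DKO TAM and 695 and 1046 CPM in p53KO TAM livers (-2.79 ± 0.31, adjusted p = 2.2e-04). The 3 falls were thus of similar size. Cyp2c54 fell in DKO (-3.97 ± 0.41) and DKO TAM livers (-2.36 ± 0.38; -2.97 without DKO TAM replicate 1), and its KO value missed the threshold (-1.23 ± 0.37, adjusted p = 0.063), though it passed with DESeq2 (adjusted p = 0.024) and with only the compared libraries (4.8e-04).

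Several Cyp2c calls did not hold when 1 library was left out, which leaves 1 library in that group. Cyp2c37, a 12-hydroxylating arachidonic acid enzyme, had 73.7 and 44.4 CPM in KO and 206 and 226 CPM in FF livers (-1.87 ± 0.40, adjusted p = 0.02), but the call was lost without KO replicate 2 (adjusted p = 0.10), FF replicate 1 (0.068) or FF replicate 2 (0.094). Its fall in DKO TAM livers (-1.75 ± 0.39, adjusted p = 0.019) was lost without DKO TAM replicate 2 (0.098) or p53KO TAM replicate 2 (0.090). Cyp2c38 fell in KO livers with a log2 fold change of -1.46 ± 0.35, or -2.28 without KO replicate 1, and lost the call without FF replicate 1 (adjusted p = 0.12) or replicate 2 (0.062); its DKO TAM call was lost without DKO TAM replicate 2 (0.073). Cyp2c44, a small fall in DKO TAM livers (-0.46 ± 0.15), was lost on leaving out any of the 4 libraries, with adjusted p from 0.066 to 0.20. Cyp2c39 was the 1 tested gene of the subfamily with positive values in all 3 comparisons (0.86, 0.73 and 0.39), none of them called. Its DKO value passed with library totals (1.49, adjusted p = 0.0021), without DKO replicate 3 (1.11, 0.030) and without p53KO replicate 2 (1.30, 0.045).

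Cyp2c40 and Cyp2c69, which are higher in female mouse liver, share 60.3% and 54.3% of their 50-base words with other genes. Cyp2c40 had 55.0 and 35.3 CPM in DKO TAM and 266 and 433 CPM in p53KO TAM livers (-2.94 ± 0.72, adjusted p = 0.036), a call lost without any 1 of the 4 libraries (adjusted p from 0.084 to 0.18). Cyp2c69 had 26.1 and 13.9 CPM in DKO TAM and 161 and 229.9 CPM in p53KO TAM livers (-3.27 ± 0.61, adjusted p = 0.014), lost without DKO TAM replicate 2 (0.088) or p53KO TAM replicate 2 (0.059). Both were highest in the p53KO TAM controls. The fall of Cyp2c40 in DKO livers was just within the threshold (-2.23 ± 0.77, adjusted p = 0.0497). It became -3.67 without DKO replicate 2 and -1.54 without DKO replicate 3. The call was lost in 10 of 12 alternative settings of scaling, filter, tool, libraries fitted or library left out.

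Enzymes of the central and portal zones followed. Of 8 P450 genes known from hepatocytes near the central vein, 5 fell in KO, 7 in DKO and 5 in DKO TAM livers and none rose, with median log2 fold changes of -1.71, -3.34 and -1.55. Cyp2e1 (chr7:140763832-140774977, plus strand), which oxidizes ethanol and acetaminophen, had 2052 and 1485 CPM in KO and 4971 and 6293 CPM in FF livers (-1.67 ± 0.21, adjusted p = 5.4e-05). It had 633 and 469 CPM in DKO and 6370.0 and 6312 CPM in p53KO livers (-3.52 ± 0.23, adjusted p = 5.1e-09). The tamoxifen experiment gave 2687 and 2152 CPM in DKO TAM and 2643 and 3460.4 CPM in p53KO TAM livers (-0.33 ± 0.20, adjusted p = 0.28). DKO TAM replicate 1 lay inside the range of the p53KO TAM libraries, so these groups overlapped. Both p53KO TAM controls stood under both p53KO controls. The fall in DKO livers was larger than the change in DKO TAM livers (log2 difference -3.19 ± 0.30, adjusted p = 3.6e-06) and than the fall in KO livers (-1.85 ± 0.29, adjusted p = 3.9e-04).

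Cyp1a2, which metabolizes caffeine and aromatic amines and is inducible through Ahr, had 365 and 196 CPM in KO and 952 and 947 CPM in FF livers (-1.76 ± 0.28, adjusted p = 0.0022). It had 102 and 105 CPM in DKO and 916 and 923 CPM in p53KO livers (-3.15 ± 0.29, adjusted p = 8.3e-06), and 87.5 and 52.6 CPM in DKO TAM and 189.7 and 167 CPM in p53KO TAM livers (-1.34 ± 0.28, adjusted p = 0.0086). The last call was lost without p53KO TAM replicate 1 (adjusted p = 0.058), and the p53KO TAM controls already stood far under the other controls. Cyp2a5, the coumarin 7-hydroxylase of mice, had 98.6 and 107 CPM in DKO and 696 and 1033 CPM in p53KO livers (-3.07 ± 0.46, adjusted p = 0.001); its values in KO (-0.71) and DKO TAM livers (-0.43) were not called.

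Cyp2f2, an enzyme of periportal hepatocytes and of lung that activates naphthalene, had 387 and 864 CPM in KO and 1074 and 1119.7 CPM in FF livers (-0.81 ± 0.49, adjusted p = 0.34). It had 27.98 and 72.5 CPM in DKO and 999.9 and 809.9 CPM in p53KO livers (-4.17 ± 0.56, adjusted p = 7.3e-04; -5.02 without DKO replicate 3), and 158 and 122 CPM in DKO TAM and 265 and 309 CPM in p53KO TAM livers (-1.04 ± 0.50, adjusted p = 0.21). Both KO libraries were under both FF libraries, but apart from each other, and only the DKO call passed. With only the compared libraries fitted, the fall in DKO TAM livers passed as well (-1.03, adjusted p = 5.1e-04). The fall in DKO livers exceeded that in KO livers (-3.36 ± 0.72, adjusted p = 0.017) and that in DKO TAM livers (-3.13 ± 0.72, adjusted p = 0.019). The first difference was -2.63 without KO replicate 2 and -4.21 without DKO replicate 3, and was lost without FF replicate 1 (adjusted p = 0.072), FF replicate 2 (0.057) or p53KO replicate 1 (0.057). The second was -3.98 without DKO replicate 3, and was lost without p53KO replicate 1 (0.061), DKO TAM replicate 1 (0.066) or either p53KO TAM library (0.070 and 0.052). Thus a gene of the portal side and genes of the central side both fell in DKO livers.

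**Figure D3:**
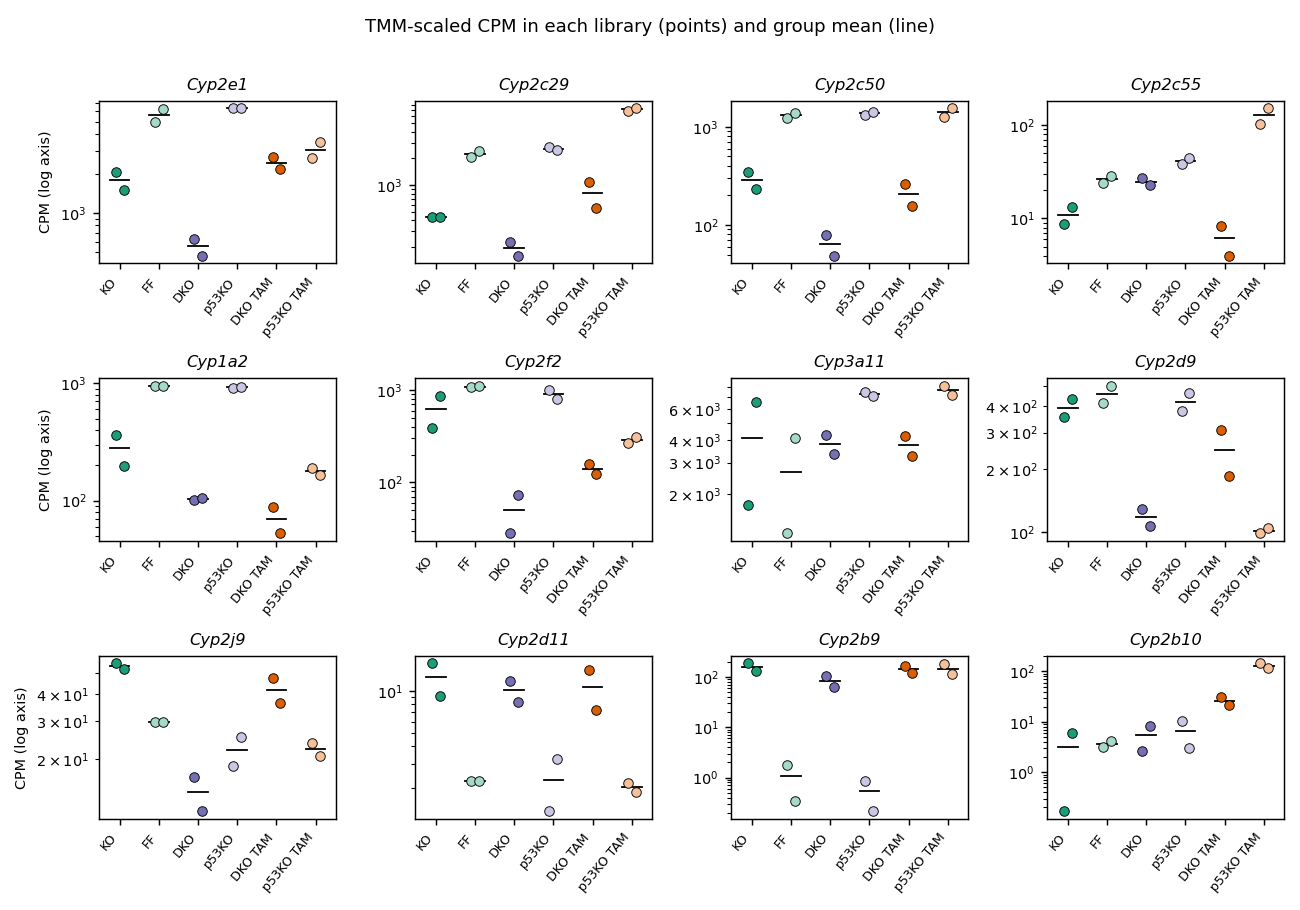
TMM-scaled CPM (log axes, a scale of its own in each panel) of 12 P450 genes in each library (points) with the group mean (line), each deleted group left of its control. Cyp2e1 and Cyp2c50 are lowest in DKO livers, Cyp2b9 is under 2 CPM in FF and p53KO livers alone, and Cyp2b10, Cyp2c29 and Cyp2c55 are highest in p53KO TAM livers.

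The Cyp3a genes, whose products hydroxylate steroids and many drugs, had no call in KO livers in the fit used here, which has no replicate term, and 3 falls of 7 in each of DKO and DKO TAM livers. Cyp3a11 (chr5:145854607-145879854, minus strand), a PXR target and the most abundant P450 per kilobase over the 12 libraries, had 1728 and 6553 CPM in KO and 1205 and 4147 CPM in FF livers (0.63 ± 0.73, adjusted p = 0.64). The 2 libraries within each of these groups differed by more than the groups did. Replicate 2 was the higher in both groups, and an edgeR fit with a replicate block called Cyp3a11 higher in KO livers (0.59, adjusted p = 0.032). It had 4289 and 3344 CPM in DKO and 7479 and 7128 CPM in p53KO livers (-0.94 ± 0.73, adjusted p = 0.33), and 4246 and 3259 CPM in DKO TAM and 8103 and 7217 CPM in p53KO TAM livers (-1.03 ± 0.73, adjusted p = 0.4). In both p53-null experiments the groups did not overlap with TMM scaling, but the spread of the 7-week libraries enters the shared estimate. By library totals the groups overlapped in the first, with 6016 and 4717 CPM in DKO and 6171 and 5914 CPM in p53KO livers. With only the compared libraries fitted, Cyp3a11 was called lower in DKO (-0.90, adjusted p = 0.0016) and DKO TAM livers (-1.03, adjusted p = 0.0023).

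Cyp3a25 had 221 and 179 CPM in DKO and 1311 and 1406 CPM in p53KO livers (-2.76 ± 0.36, adjusted p = 2.0e-04), and 337 and 215 CPM in DKO TAM and 1141 and 1039 CPM in p53KO TAM livers (-1.98 ± 0.35, adjusted p = 0.005). In KO livers it had 376 and 666 CPM, against 856 and 1502 CPM in FF livers (-1.18 ± 0.34, adjusted p = 0.0501), a fall that passed with DESeq2 (0.025), without KO replicate 2 (-1.67, 0.018) and without FF replicate 1 (-1.53, 0.013). It thus fell in both p53-null experiments, as did Cyp3a13 (-1.53 and -0.93) and Cyp3a57 (-1.60 and -1.56). Cyp3a59, of whose 50-base words 30.02% occur in other genes, mostly Cyp3a25, had 93.2 and 189 CPM in KO and 25.3 and 70.6 CPM in FF livers (1.53 ± 0.53, adjusted p = 0.11), and passed with DESeq2 (1.55, adjusted p = 0.033), with library totals (1.78, 0.044) and without FF replicate 2 (2.47, 0.030). Cyp3a16, a fetal and female-biased gene, was far apart in the DKO TAM libraries, with 44.0 and 1.25 CPM in DKO TAM and 89.9 and 59.5 CPM in p53KO TAM livers. It had 64.6 and 47.3 CPM in DKO and 8.37 and 7.08 CPM in p53KO livers, 0.678 and 2.11 CPM in KO and 2.49 and 0.518 CPM in FF livers, and no comparison was called. Both DKO libraries stood well above both p53KO libraries, and that gain passed with only the compared libraries (2.88, adjusted p = 1.9e-06) and with library totals (3.61, 0.035). The DKO TAM value passed as a fall without DKO TAM replicate 1 (-5.89, 2.1e-04).

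Among the Cyp2d genes, the mouse relatives of human CYP2D6, losses and gains lay side by side in 1 cluster. Of 8 tested, 2 rose and 3 fell in KO, 1 rose and 7 fell in DKO, and 2 rose and 3 fell in DKO TAM livers. Cyp2d13 had 90.8 and 97.7 CPM in KO and 224 and 251 CPM in FF livers (-1.33 ± 0.22, adjusted p = 0.0018), and 19.2 and 10.4 CPM in DKO and 216 and 219 CPM in p53KO livers (-3.87 ± 0.25, adjusted p = 1.1e-07). Its log2 fold change in DKO TAM livers was -1.42 ± 0.23, and Cyp2d22 and Cyp2d26 fell in all 3 as well. The fall of Cyp2d12 in DKO livers (-1.75 ± 0.68, adjusted p = 0.043), a gene of 0.428 to 4.29 CPM, was -2.58 without DKO replicate 2 and -2.47 without p53KO replicate 1, and was lost without DKO replicate 3 (-1.25, adjusted p = 0.21) or p53KO replicate 2 (-0.64, adjusted p = 0.57).

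Cyp2d11 lies between Cyp2d22 and Cyp2d10 and rose in every comparison. It had 15.8 and 9.23 CPM in KO and 2.26 and 2.25 CPM in FF livers (2.47 ± 0.45, adjusted p = 0.0022), and 11.9 and 8.39 CPM in DKO and 1.37 and 3.22 CPM in p53KO livers (2.19 ± 0.44, adjusted p = 8.3e-04; 2.86 without p53KO replicate 2). After tamoxifen it had 14.1 and 7.26 CPM in DKO TAM and 2.19 and 1.88 CPM in p53KO TAM livers (2.38 ± 0.44, adjusted p = 0.002). All 6 deleted libraries were thus above all 6 controls. It shares 37.2% of its 50-base words with other genes, mostly the far more abundant Cyp2d10, so some of its counts may belong there. Cyp2d10 itself had 448 and 522 CPM in KO and 261 and 309 CPM in FF livers (0.77 ± 0.17, adjusted p = 0.0068), and 147 and 128 CPM in DKO and 275 and 304 CPM in p53KO livers (-1.07 ± 0.17, adjusted p = 8.7e-05). It thus rose in KO and fell in DKO livers, and the difference passed the test (-1.84 ± 0.25, adjusted p = 1.2e-04). The KO call was lost without KO replicate 2 (adjusted p = 0.067) or FF replicate 1 (0.079), and the DKO call with scaling by library totals (-0.31, adjusted p = 0.11).

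Cyp2d9, the male-typical testosterone 16-alpha-hydroxylase that depends on growth hormone, changed in opposite directions in the p53-null experiments. It had 129 and 107 CPM in DKO and 379 and 462 CPM in p53KO livers (-1.83 ± 0.21, adjusted p = 8.3e-06). In DKO TAM livers it had 307 and 187 CPM, against 98.9 and 105 CPM in p53KO TAM livers (1.28 ± 0.21, adjusted p = 0.0011). DKO TAM livers thus held more than their controls, but less than p53KO livers. The difference between the effects was -3.10 ± 0.30 (adjusted p = 1.3e-05). In KO livers it had 354 and 436 CPM, against 415 and 503 CPM in FF livers (-0.22 ± 0.21, adjusted p = 0.54), and these groups overlapped.

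Genes with higher levels in female than male mouse liver included Cyp2b9, which rose 158-fold in KO and 142-fold in DKO livers, and Cyp2b13, which had no count in their controls. Of 9 such P450 genes, 2 rose in KO livers (Cyp2b9 and Cyp2b13), 3 rose and 1 fell in DKO livers, and 2 fell in DKO TAM livers. Among all genes, 6.92% rose in KO, 25.7% rose and 25.7% fell in DKO, and 10.1% fell in DKO TAM livers. Cyp2b9 (chr7:26173409-26210660, plus strand) had 187 and 129.8 CPM in KO and 1.81 and 0.345 CPM in FF livers (7.30 ± 0.62, adjusted p = 2.4e-04). It had 103 and 63.8 CPM in DKO and 0.854 and 0.214 CPM in p53KO livers (7.15 ± 0.69, adjusted p = 6.3e-05). The size of these gains depended on low controls: it was 8.77 without FF replicate 1, 6.44 without FF replicate 2 and 8.48 without p53KO replicate 1. In DKO TAM livers Cyp2b9 had 164 and 122 CPM, against 181 and 113 CPM in p53KO TAM livers (-0.04 ± 0.35, adjusted p = 0.95). The p53KO TAM controls were thus as high as the deleted livers of the other experiments, and the effect in DKO livers exceeded that in DKO TAM livers by 7.20 ± 0.82 (adjusted p = 6.1e-04; 8.53 without p53KO replicate 1).

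Cyp2b13 (chr7:26061495-26096196, plus strand) had no count in any FF or p53KO library. It had 4.74 and 2.69 CPM in KO livers, at least 12.9-fold higher than FF, and 2.54 and 1.45 CPM in DKO livers, at least 7.02-fold higher than p53KO, both against a floor of 3 counts over the group that covers counting error only (adjusted p = 0.0011 and 9.1e-04). Cyp2b13 had 3.75 and 1.75 CPM in DKO TAM and 1.31 and 1.25 CPM in p53KO TAM livers (1.11 ± 0.54, adjusted p = 0.17), which passed with library totals (1.45, 0.048). It followed Cyp2b9 at a far lower level, and 27.3% of its 50-base words occur in other genes. Cyp2a4, a steroid 15-alpha-hydroxylase of female liver, had 66.0 and 65.2 CPM in DKO and 0.683 and 22.3 CPM in p53KO livers (2.60 ± 0.89, adjusted p = 0.049). This call was lost in 7 of 12 alternative settings, among them leaving out DKO replicate 2 or 3. The value became 1.55 without p53KO replicate 1 and 6.54 without p53KO replicate 2. Of the words of Cyp2a4, 38.0% occur in other genes, mostly Cyp2a5.

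The sequences of the 250 bases before the RefSeq starts of the 3 expressed Cyp2b genes (GRCm38.p6, plus strand) are shown because 2 of these genes, Cyp2b9 and Cyp2b13, moved together and the third, Cyp2b10, did not. They are Cyp2b9 at chr7:26173159-26173408, Cyp2b13 at chr7:26061245-26061494 and Cyp2b10 at chr7:25897408-25897657; capitals mark bases of Cyp2b13 or Cyp2b10 that are not matched by the same base of Cyp2b9 in a global alignment.
Cyp2b9: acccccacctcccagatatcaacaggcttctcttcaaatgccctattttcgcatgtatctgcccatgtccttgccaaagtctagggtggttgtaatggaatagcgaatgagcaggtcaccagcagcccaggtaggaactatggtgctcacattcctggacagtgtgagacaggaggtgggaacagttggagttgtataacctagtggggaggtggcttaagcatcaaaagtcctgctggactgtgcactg
Cyp2b13: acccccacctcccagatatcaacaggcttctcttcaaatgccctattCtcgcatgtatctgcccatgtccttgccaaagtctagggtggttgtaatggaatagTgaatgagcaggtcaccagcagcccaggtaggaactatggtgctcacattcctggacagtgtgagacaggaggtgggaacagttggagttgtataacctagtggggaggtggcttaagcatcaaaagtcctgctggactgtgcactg
Cyp2b10: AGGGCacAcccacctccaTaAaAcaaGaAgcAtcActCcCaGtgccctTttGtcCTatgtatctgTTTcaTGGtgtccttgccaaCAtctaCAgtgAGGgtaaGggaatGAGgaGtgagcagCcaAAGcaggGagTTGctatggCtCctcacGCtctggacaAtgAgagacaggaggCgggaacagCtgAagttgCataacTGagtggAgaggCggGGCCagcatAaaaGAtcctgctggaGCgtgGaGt
Cyp2b13 matched Cyp2b9 at 248 of 250 bases, with the substitutions T48C and C104T, counted from 1 at the 5′ end of the stretch with the base of Cyp2b9 first. Cyp2b10 matched at 179 of 250 bases.

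Cyp2b10 (chr7:25897664-25926624, plus strand), the classical CAR target, had 31.0 and 21.3 CPM in DKO TAM and 144 and 118 CPM in p53KO TAM livers (-2.32 ± 0.64, adjusted p = 0.051). Deleted libraries were well under their controls, but the value just missed the threshold; with only the 4 compared libraries fitted it was -2.32 with an adjusted p of 1.2e-05. It had 0.169 and 6.15 CPM in KO and 3.16 and 4.15 CPM in FF livers, and 2.63 and 8.13 CPM in DKO and 10.2 and 3.003 CPM in p53KO livers, with scattered values within groups. Of 5 CAR-inducible P450 genes, 4 fell in each of the 3 comparisons (Cyp2c29, Cyp2c37, Cyp2c50 and Cyp2c55), and Cyp2b10 was called in none.

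Cyp2c55, a CAR-inducible 19-hydroxylase of arachidonic acid, was also highest in the p53KO TAM controls. It had 8.33 and 4.01 CPM in DKO TAM and 103 and 153 CPM in p53KO TAM livers (-4.34 ± 0.30, adjusted p = 4.6e-06; -4.98 without DKO TAM replicate 1). In KO livers it had 8.64 and 13.3 CPM, against 24.0 and 28.8 CPM in FF livers (-1.29 ± 0.32, adjusted p = 0.02), a call lost without KO replicate 1 (adjusted p = 0.14) or FF replicate 2 (0.13). It had 26.8 and 22.9 CPM in DKO and 38.8 and 44.2 CPM in p53KO livers (-0.73 ± 0.27, adjusted p = 0.037), a call lost on leaving out any of these 4 libraries (adjusted p from 0.078 to 0.18) and turned to 0.032 with scaling by library totals. The effect in DKO livers was thus smaller than that in DKO TAM livers, by 3.60 ± 0.40 on the log2 scale (adjusted p = 1.1e-04; 4.24 without DKO TAM replicate 1).

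The p53KO TAM controls differed from the 8-week p53KO controls in many of these genes, and tamoxifen, age and experiment cannot be told apart there. The 9 female-biased genes summed to 894 to 997 CPM in p53KO TAM livers and 83.7 to 141 CPM in p53KO livers. The 5 CAR-inducible genes summed to 8625 to 9567 CPM in p53KO TAM livers and 4145 to 4302 CPM in p53KO livers. Cyp2c29 led this sum, with 3841 and 4135 CPM per kilobase in p53KO TAM and 1488 and 1386 in p53KO livers. Cyp2b10 and Cyp2c55 were also higher in both p53KO TAM libraries. Cyp2c37 and Cyp2c50 overlapped between these controls. In DKO TAM livers the female-biased sum was 232 to 368 CPM, between both controls, and the CAR-inducible sum was 797 to 1484 CPM, below both. Cyp2e1 was lower in both p53KO TAM than in both p53KO libraries, with 1522 and 1993 against 3669 and 3636 CPM per kilobase. Cyp1a2, Cyp2a5, Cyp2c44, Cyp2f2 and Cyp2d9 were among the other genes that were lower there. Transcripts of Y-linked genes were present in all 12 libraries. Xist, from the inactive X chromosome of females, had 65 counts in KO replicate 1 and 62 counts in DKO TAM replicate 1. The other 10 libraries held 1 to 21 counts. By CPM per kilobase, all 9 female-biased genes were higher in DKO TAM replicate 1 than in replicate 2, Cyp3a16 most (422 against 10 counts). In KO replicate 1, Cyp2b9, Cyp2b13, Cyp2a4, Cyp2c40 and Cyp2c69 were higher than in replicate 2. Cyp2b10, Cyp2c39, Cyp3a16 (4 against 11 counts) and Cyp3a44 were lower there. The part of Xist in the female-biased levels was not tested. No test of these controls against each other was made.

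Of the Ahr-inducible genes, Cyp1b1, which oxidizes oestrogens and polycyclic hydrocarbons and is expressed mostly outside hepatocytes, rose in DKO livers. It had 8.99 and 11.98 CPM in DKO and 1.88 and 1.93 CPM in p53KO livers (2.45 ± 0.38, adjusted p = 5.4e-05). It had 2.88 and 1.73 CPM in KO and 0.904 and 3.28 CPM in FF livers, and 2.50 and 2.50 CPM in DKO TAM and 1.46 and 1.46 CPM in p53KO TAM livers, neither of them called. The 8 stellate and fibroblast markers summed to 1196 to 1290 CPM in DKO and 269 to 272 CPM in p53KO livers, and their part in the rise of Cyp1b1 was not tested. Cyp1a1 had 8.22 and 5.22 CPM in DKO and 3.93 and 3.22 CPM in p53KO livers (0.90 ± 0.36, adjusted p = 0.044). That call was lost without DKO replicate 2 (adjusted p = 0.36), p53KO replicate 1 (0.10) or p53KO replicate 2 (0.18).

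The Cyp2j genes, epoxygenases of arachidonic acid, included gains as well. Cyp2j5, the main one in liver, had 603 and 727 CPM in KO and 1302 and 1511 CPM in FF livers (-1.08 ± 0.15, adjusted p = 1.7e-04). It had 189 and 155 CPM in DKO and 1504 and 1456 CPM in p53KO livers (-3.11 ± 0.16, adjusted p = 5.0e-10), and 473 and 438 CPM in DKO TAM and 1235 and 1381 CPM in p53KO TAM livers (-1.52 ± 0.15, adjusted p = 5.3e-06). It fell in all 3, most in DKO livers. Its neighbour Cyp2j9 had 55.4 and 52.5 CPM in KO and 29.6 and 29.7 CPM in FF livers (0.86 ± 0.19, adjusted p = 0.0054), and 47.2 and 36.2 CPM in DKO TAM and 23.6 and 20.7 CPM in p53KO TAM livers (0.91 ± 0.19, adjusted p = 0.0034). In DKO livers it had 16.5 and 11.5 CPM, against 18.6 and 25.3 CPM in p53KO livers (-0.64 ± 0.20, adjusted p = 0.014). Cyp2j9 was thus called higher in KO and DKO TAM and lower in DKO livers, but the fall was lost without DKO replicate 3 or p53KO replicate 2 (adjusted p = 0.16 each), and turned to 0.13 with scaling by library totals. The effects differed between DKO and KO (-1.501 ± 0.28, adjusted p = 0.0013) and between DKO and DKO TAM livers (-1.55 ± 0.28, adjusted p = 7.3e-04).

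Cyp2j8 rose in all 3 on 14 counts in the KO against 1 in the FF libraries, 28 in the DKO against 3 in the p53KO libraries, and 31 in the DKO TAM against 2 in the p53KO TAM libraries. The ratios were 12.9 (95% exact binomial interval 1.96 to 545), 4.18 (1.29 to 21.5) and 10.3 (2.61 to 88.6), and these intervals cover counting error only. The calls (adjusted p = 0.034, 0.04 and 0.01) were fragile: the first was lost without any 1 of its 4 libraries (adjusted p from 0.086 to 0.17), the second without DKO replicate 2 (0.32), p53KO replicate 1 (0.13) or replicate 2 (0.16), and the third without p53KO TAM replicate 1 (0.12) or replicate 2 (0.052). Cyp2a22 had 18.3 and 10.96 CPM in KO and 4.52 and 2.25 CPM in FF livers (2.17 ± 0.36, adjusted p = 8.7e-04), and 8.82 and 8.73 CPM in DKO and 2.90 and 3.003 CPM in p53KO livers (1.57 ± 0.37, adjusted p = 0.0021). Its gain in DKO TAM livers (1.32 ± 0.33, adjusted p = 0.01) was lost without DKO TAM replicate 1 (0.086) or p53KO TAM replicate 2 (0.10), and 20.2% of its words occur in other genes, mostly Cyp2a12.

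Cyp2a12, the neighbour of Cyp2a22 and a hydroxylase of bile acids, went the other way. It had 678 and 712 CPM in KO and 829.7 and 900.4 CPM in FF livers (-0.32 ± 0.16, adjusted p = 0.22). It had 153 and 232 CPM in DKO and 855 and 832 CPM in p53KO livers (-2.13 ± 0.17, adjusted p = 4.4e-08), and 358 and 324 CPM in DKO TAM and 561 and 597 CPM in p53KO TAM livers (-0.76 ± 0.16, adjusted p = 0.0041). It thus fell in both p53-null experiments. Cyp2r1, a vitamin D 25-hydroxylase, fell in KO (-1.35), DKO (-1.99) and DKO TAM livers (-1.21), with 9.33 and 8.39 CPM in DKO and 29.9 and 40.8 CPM in p53KO livers. Cyp2g1, known from olfactory mucosa, had 0.594 and 0.514 CPM in DKO and 2.73 and 3.22 CPM in p53KO livers (-2.38 ± 0.59, adjusted p = 0.003), a fall at a low level. Cyp2u1, a fatty acid hydroxylase, had 14.7 and 12.4 CPM in DKO and 57.5 and 61.1 CPM in p53KO livers (-2.13 ± 0.20, adjusted p = 2.5e-07), beside 60.1 and 80.9 CPM in KO and 67.6 and 70.1 CPM in FF livers (0.03 ± 0.18, adjusted p = 0.93).

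Whether the size of the effect differed between experiments was tested directly. The difference DKO effect minus KO effect was called for 24 of the 47 genes, 22 negative and 2 positive, where 22.7% of all genes were called, 12.9% negative and 9.75% positive; the median over the 47 was -1.37. The smallest p-values belonged to Cyp2j5 (-2.03 ± 0.22, adjusted p = 2.0e-05), Cyp2u1 (-2.16 ± 0.27, adjusted p = 6.9e-05), Cyp2c44 (-1.64 ± 0.21, adjusted p = 7.5e-05), Cyp2a12 (-1.81 ± 0.23, adjusted p = 8.1e-05), Cyp2d10 and Cyp2d13 (-2.54 ± 0.32, adjusted p = 2.6e-04). Negative differences were thus more frequent than in the background. The 2 positive ones, Cyp1b1 (2.38 ± 0.63) and Cyp1a1 (1.92 ± 0.61), did not hold on leaving out libraries. Cyp1b1 was lost without FF replicate 2 (1.09, adjusted p = 0.43). Cyp1a1 was lost without KO replicate 1, FF replicate 1 or 2, DKO replicate 2 or p53KO replicate 1 or 2 (adjusted p from 0.056 to 0.12). Age and p53 status differ between these experiments and cannot be told apart.

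The difference DKO effect minus DKO TAM effect was called for 20 genes, 17 negative and 3 positive, where 27.6% of all genes were called, 14.2% negative and 13.4% positive; the median over the 47 was -0.77. Beside Cyp2e1 and Cyp2d9, Cyp2c44 (-1.61 ± 0.21, adjusted p = 5.4e-05), Cyp2j5 (-1.59 ± 0.22, adjusted p = 7.5e-05) and Cyp2d13 (-2.45 ± 0.32, adjusted p = 2.2e-04) had the smallest p-values among the negative ones. The positive ones were Cyp2b9, Cyp2c55 and Cyp2b13. The call of Cyp2b13 (5.72 ± 1.824, adjusted p = 0.03, a value fitted against p53KO libraries with no count; 6.33 without DKO TAM replicate 1) was lost without DKO replicate 2, either p53KO or either p53KO TAM library (adjusted p from 0.054 to 0.12). For Cyp2c29 the difference was not called (-0.60 ± 0.35, adjusted p = 0.23), but it passed without DKO TAM replicate 2 (-1.01, adjusted p = 0.0071). Tamoxifen, the form of Cre, age and time since deletion all differ between these experiments.

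**Figure D4:**
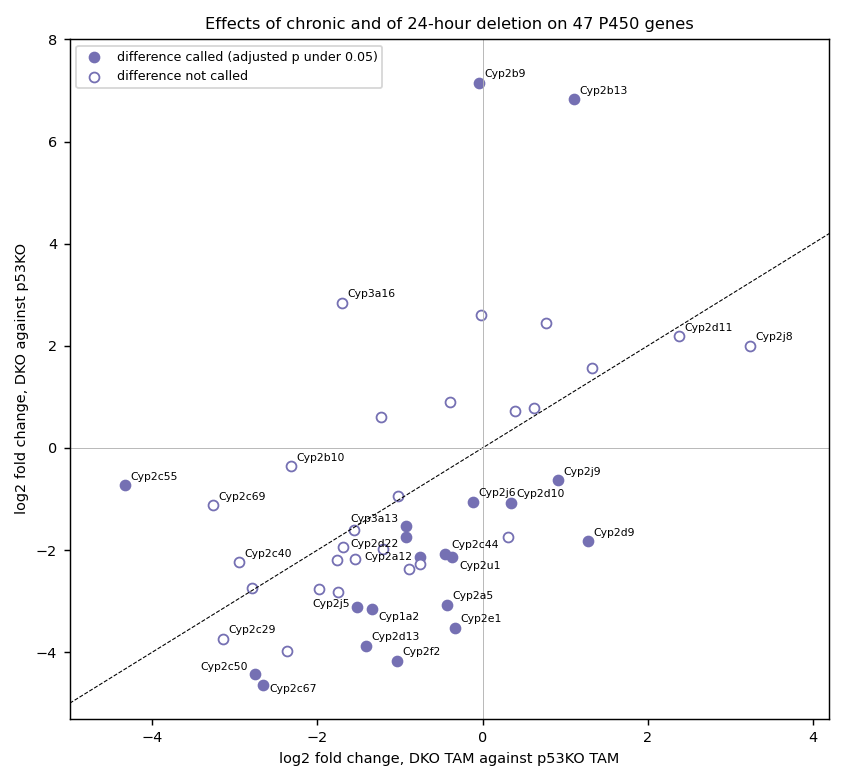
Log2 fold change of the 47 genes in DKO against p53KO livers (vertical) and in DKO TAM against p53KO TAM livers (horizontal), with the line of equal effects dashed; filled points mark genes whose difference of effects had an adjusted p under 0.05. Cyp2e1 lies near 0 on the horizontal axis and at -3.52 on the vertical one, Cyp2c55 lies farthest left at -4.34, and Cyp2b9 lies near 0 and at 7.15.

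In p53KO against FF livers, both with Gdown1 kept, no P450 gene was called: 0 of 47, where 0.862% of all genes were called. The p53 label, age and experiment differ between these groups and cannot be told apart. At an unadjusted p under 0.05 edgeR counted 4 of 47 (Cyp2c55, Cyp2g1, Cyp2j9 and Cyp3a44) and DESeq2 3. The share of all genes at that threshold was not counted, so these counts have no background. By adjusted p DESeq2 called 0 as well. With only these 4 libraries fitted, 2 were called higher, Cyp3a16 (2.46, adjusted p = 0.033) and Cyp3a44 (2.39, adjusted p = 0.010). A fit with a replicate block called Cyp3a11 (1.71, adjusted p = 1.8e-04), Cyp3a44 (2.79, 0.0062) and Cyp2a5 (0.86, 0.010) higher. In the fit used throughout, the median over the 47 was 0.04. The Cyp3a sum averaged 8892 ± 179 CPM in p53KO and 4080 ± 2589 CPM in FF livers (SD, n = 2 each), and the FF libraries were far apart.

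Genes that regulate or serve these enzymes were examined beside them. Of 26 tested regulators, 2 rose and 7 fell in KO, 2 rose and 14 fell in DKO, and 1 rose and 4 fell in DKO TAM livers. Among all genes, 6.92% rose and 7.88% fell in KO livers. The shares were 25.7% and 25.7% in DKO, and 8.61% and 10.1% in DKO TAM livers. Nr1i3, which encodes CAR, had 45.6 and 33.1 CPM in KO and 64.6 and 80.8 CPM in FF livers (-0.89 ± 0.17, adjusted p = 0.0024), 19.2 and 22.7 CPM in DKO and 74.4 and 68.2 CPM in p53KO livers (-1.77 ± 0.17, adjusted p = 3.9e-07), and was not called in DKO TAM livers (-0.29 ± 0.17, adjusted p = 0.24). The growth hormone receptor Ghr fell in DKO livers (-2.37 ± 0.19, adjusted p = 4.9e-08), and its values in KO (-0.34) and DKO TAM livers (-0.52) were not called. The hepatocyte transcription factors Cebpa and Foxa1 fell in KO (-0.55 and -0.90) and DKO livers (-1.88 and -1.54). Cux2, a repressor of male-typical genes in female liver, had 0.312 and 0.501 CPM in DKO TAM and 8.89 and 8.14 CPM in p53KO TAM livers (-4.36 ± 0.45, adjusted p = 6.5e-06), and at most 1.61 CPM in the other 8 libraries. It was thus high in the same controls in which Cyp2b10, Cyp2c40 and Cyp2c69 were highest. Among the other female-biased genes, Cyp2b9 was about as high in KO and DKO TAM livers, and Cyp2a4 was higher in KO and DKO livers. Cux2 was at most 1.61 CPM in all of these. A link between Cux2 and these genes was not tested.

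Of 17 genes that supply electrons and haem or hydrolyse the epoxides, 1 rose and 3 fell in KO, 1 rose and 11 fell in DKO, and 1 rose and 4 fell in DKO TAM livers. Among all genes tested, 14.8% were called in KO, 51.4% in DKO and 18.7% in DKO TAM livers. Cyb5r3 and Cyb5b, the reductase and a mitochondrial form of cytochrome b5, fell in DKO livers, with log2 fold changes of -1.12 ± 0.13 and -1.41 ± 0.16. Fech, which inserts iron into haem, fell there as well (-1.08 ± 0.14), and so did Ephx2, the soluble epoxide hydrolase (-1.22 ± 0.18). Hmox1, which degrades haem, was the 1 that rose, with 55.1 and 67.6 CPM in DKO and 15.9 and 12.7 CPM in p53KO livers (2.09 ± 0.20, adjusted p = 2.7e-07). Por, the electron donor of all these enzymes, was not called in any comparison (0.39, 0.20 and 0.58).

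RefSeq promoters (GRCm38.p6, 250 bases before to 50 after the start) were found for 50 of the 58 genes and compared with all 27018. TATAAA on the sense strand occurred in 19 of the 50 (38.0%) and in 8.88% of all promoters. On either strand, AGGTCA, the core of nuclear receptor sites, occurred in 18 (36.0%, against 16.0% of all), GTTAAT, an HNF1 type core, in 6 (12%, against 7.20%) and TGTTTNC, a FOXA type site, in 11 (22.0%, against 20.6%). TTCNNNGAA, the site type bound by STAT5, occurred in 2 (4%, against 8.47%), and GCGTG, the core of the Ahr site, in 9 (18.0%, against 32.5%). Some of these genes are close copies of each other, so matches in their promoters are not all independent. Of the sequences shown above, Cyp2b9, Cyp2b13 and Cyp2c29 hold AGGTCA, and the TATA boxes of Cyp2e1 and Cyp2c29 begin 31 and 19 bases before the RefSeq start.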

How the data were processed

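Total RNA of whole livers was sequenced in 12 libraries, 2 in each of 6 groups. The submitters' processing notes name CASAVA 1.82, HISAT2, featureCounts and the build mm10; 4 of the 12 deposited files name featureCounts 1.6.4 in their headers and 8 name no program. The authors deposited raw counts per gene, and those program lines ask for counting without strand, so reads of overlapping antisense genes cannot be told apart. Each library held 4939408 to 8776369 counts, and 99.9% of them fell in the genes tested.

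Genes with enough counts (edgeR filterByExpr, minimum count 10) numbered 13693. They were scaled by TMM and fitted with a group-means model over all 12 libraries, whose shared spread has 6 residual degrees of freedom, and compared by edgeR's robust quasi-likelihood test with Benjamini-Hochberg adjustment over all of them (R 4.3.3, edgeR 4.0.16, limma 3.58.1). Each SE was taken from the fold change and its F statistic. DESeq2 1.42.0, other scalings and filters, fits on the compared libraries alone, a replicate block and leaving out each library were alternatives. CPM per kilobase used the exonic lengths in the deposited files, and shared 50-base words came from GENCODE transcripts.

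The members and lists were chosen with earlier results of these data known. Values per library are given for the 8 genes highest per kilobase, up to 6 genes called each way per comparison by size of change with a mean of at least 5 CPM, genes called in opposite directions, and up to 6 per called difference; up to 5 regulators and 5 partner enzymes were named by smallest p. Further P450 genes and Por were named for their role. Neighbouring names outside the rule, 4 in number (pseudogenes and Cyp3a41 copies), were not used.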

Additional observations from a re-analysis of the deposited data

Results flagged for a closer look

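The effect of the deletion differed between experiments by a test of the difference itself for 24 P450 genes between DKO and KO livers. The log2 differences, DKO effect minus KO effect, were -2.03 for Cyp2j5, -2.16 for Cyp2u1, -1.64 for Cyp2c44, -1.81 for Cyp2a12, -1.84 for Cyp2d10 and -2.54 for Cyp2d13. The positive ones were 1.92 for Cyp1a1 and 2.38 for Cyp1b1, and both were lost on leaving out single libraries.

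Between DKO and DKO TAM livers 20 P450 genes differed in the same sense. The log2 differences, DKO effect minus DKO TAM effect, were -3.19 for Cyp2e1, -3.10 for Cyp2d9, -1.61 for Cyp2c44, -1.59 for Cyp2j5 and -2.45 for Cyp2d13. They were 3.60 for Cyp2c55, 7.20 for Cyp2b9 and, fitted against p53KO libraries with no count, 5.72 for Cyp2b13. For the last 3 genes the p53KO TAM controls were higher than the p53KO controls. For Cyp2e1, Cyp2d9, Cyp2c44, Cyp2j5 and Cyp2d13 both p53KO TAM libraries were lower than both p53KO libraries.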

How the results depend on the processing

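Of 133 called pairs of a P450 gene and a comparison, 132 kept direction and threshold with RLE scaling, 125 with upper quartile scaling, 116 with library totals, 125 without a filter, 131 with a filter of 1 CPM in 2 libraries, 126 of 132 with DESeq2, 128 of 131 with only the compared libraries and 117 with a 2-fold minimum. Only library totals reversed any: Cyp2c55 (0.032) and Cyp2j9 (0.13) in DKO livers. Under that scaling the log2 fold changes of all genes had medians of 0.28 in KO, 0.78 in DKO and 0.36 in DKO TAM livers, and those of the 47 P450 genes had medians of -0.23, -1.06 and -0.58. Mean P450 sums became 9602 CPM in DKO (6829 with TMM), 24157 CPM in p53KO (29194) and 24653 CPM in p53KO TAM livers (28752). DESeq2 called 5 gains in DKO livers (8 with edgeR) and 1 positive difference between DKO and KO (2 with edgeR). With only the compared libraries, 5 differences between DKO and DKO TAM were positive (3 otherwise), and 2 genes were higher in p53KO than FF livers (0 otherwise).

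Leaving out 1 library gave 5 to 7 gains and 12 to 15 falls in KO, 6 to 8 and 28 to 31 in DKO, and 3 to 6 and 17 to 21 in DKO TAM livers. It gave 0 to 2 positive and 16 to 21 negative differences between DKO and KO, 2 to 4 and 14 to 21 between DKO and DKO TAM, and 0 calls in p53KO against FF.

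The labels tie replicate numbers to no shared litter, batch or day; the unexplained numbers in the titles lie close together for same-numbered KO and FF libraries. Deviations of same-numbered libraries correlated at 0.11 (KO and FF), -0.07 (DKO and p53KO) and -0.01 (DKO TAM and p53KO TAM). With a replicate block, 125 of the 133 calls held; the P450 counts were 9 gains and 16 falls in KO, 8 and 31 in DKO, 6 and 21 in DKO TAM, and 3 gains in p53KO against FF livers (0 without the block). In KO livers the block added Cyp3a11 (0.59, adjusted p = 0.032), Cyp3a25 (-1.18, 3.5e-04), Cyp3a59 (1.62, 7.6e-06) and Cyp2a5 (-0.69, 0.0074).

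With 2 libraries a group, calls of genes under a few CPM depend on single counts, and near-identical copies cannot be separated at the depth and read handling used.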
